A study of Homo sapiens with 6 samples.

Results

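The genes described here encode glucose transporters and the enzymes of glycolysis, lactate formation, pyruvate oxidation, the pentose phosphate pathway, the malic enzyme reactions and the tricarboxylic acid (TCA) cycle. They were chosen by name, with no measured value in the rule, and 44 genes were listed. Of these, 39 had at least 1 transcript among the 30061 gene IDs of the deposited tables, with 193 of the 81818 transcripts. RPIA, RPE, ME1, ACO1 and IDH2 had no transcript in these tables and were not analysed here. For each gene the values of its transcripts were added up, which is called the gene sum below, and 36 of the 39 genes passed the filter on low values.

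RNA came from A549/DDP cells (written A549/DPP in the sample labels), a cisplatin-resistant subline whose medium held 1 µg/mL cisplatin (DDP), and from A549 cells, the parental line of human lung adenocarcinoma, for which no drug is stated. There were 3 libraries per line, from cells at passages 6 to 8, and the labels do not say whether libraries of a line were separate cultures. P values therefore measure a difference against the spread between these libraries, and only a single line stands for resistant and for parental cells. The drug in the medium and the resistance of the cells cannot be told apart.

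Glycolysis splits glucose into pyruvate in the cytosol and yields ATP and NADH. Glucose 6-phosphate can leave it for the pentose phosphate pathway, whose oxidative steps make NADPH, the reductant that keeps glutathione reduced, and whose later steps return sugar phosphates to glycolysis. Pyruvate is turned into lactate or, in mitochondria, into acetyl-CoA, which feeds the TCA cycle. Tumor cells often run glycolysis with lactate release even when oxygen is present.

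The unit is FPKM, which scales the fragments of a transcript by its length and by the mapped fragments of the library. By annotated span, the listed transcripts are mostly not the coding mRNA of these genes. Of the 193 transcripts, 141 had the span of an annotated transcript with a retained intron, 38 that of a transcript of a coding gene without a defined coding sequence, 12 no annotated span, and 2 (both of HK1) that of a coding transcript. A gene sum is thus the summed level of the listed, mostly non-coding transcripts of a gene. Retained-intron transcripts held 84.1% ± 7.06 of the members' summed FPKM in A549/DDP and 83.0% ± 7.81 in A549 (SD, n = 3 each, two-sided exact permutation test, p = 1, smallest possible p 0.1). Much of this is GAPDH, the most abundant member. Without GAPDH the share was 56.3% ± 19.1 in A549/DDP and 66.5% ± 12.3 in A549 (SD, same permutation test, p = 0.5).

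Summed over all transcripts, the libraries held 65142 to 68665 FPKM in A549/DDP and 58042 to 62589 FPKM in A549, and the number of reads is unknown. Marker lists were used to check the labelled cells. All 6 epithelial markers had transcripts, with 2077 to 2656 FPKM in A549/DDP and 859 to 1149 FPKM in A549 for the list. The 6 lung epithelial markers summed to at most 0.561 FPKM in A549/DDP and 0.153 FPKM in A549, with 5 of them at 0 or without a transcript. Fibroblast markers reached at most 0.851 FPKM in A549/DDP and 0.464 FPKM in A549, immune markers 0 FPKM in A549/DDP and 0.112 FPKM in A549, and endothelial markers were at 0 or without a transcript in every library. KRT8 carried most of the epithelial sum, with a mean of 1755 FPKM in A549/DDP and 419 FPKM in A549. KRT8, KRT18 and CDH1 had every A549/DDP library above every A549 library, while KRT7, EPCAM and KRT19 had a lower mean in A549/DDP with overlapping lines. The summed list moves with the line, as do the results below, and its part in them was not tested. In bulk RNA, a change in the number of cells of a type and in RNA per cell cannot be told apart.

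The question asked of each gene was whether its RNA differed between the resistant line and its parent. GAPDH, the glycolytic enzyme that oxidizes glyceraldehyde 3-phosphate, and PGD, the second NADPH-making enzyme of the pentose phosphate pathway, rose in A549/DDP. No member's gene sum was called lower. These 2 of 36 members stand beside a background of 1.39% of all 10591 gene sums called higher and 0.963% called lower (limma, adjusted p under 0.01 and absolute log2 fold change over 1). The A549/DDP libraries all exceeded those of A549 for 11 members and all lay below them for 0, and the lines overlapped for 25. Over all gene sums the shares were 21.8% above and 10.4% below. At an unadjusted limma p under 0.05, 9 members were higher and 0 lower, beside 18.3% and 8.71% of all gene sums. The log2 fold change was positive for 31 members and negative for 5, and its median was 0.54, against 0.17 over all gene sums, of which 62.5% were positive.

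**Figure D1:**
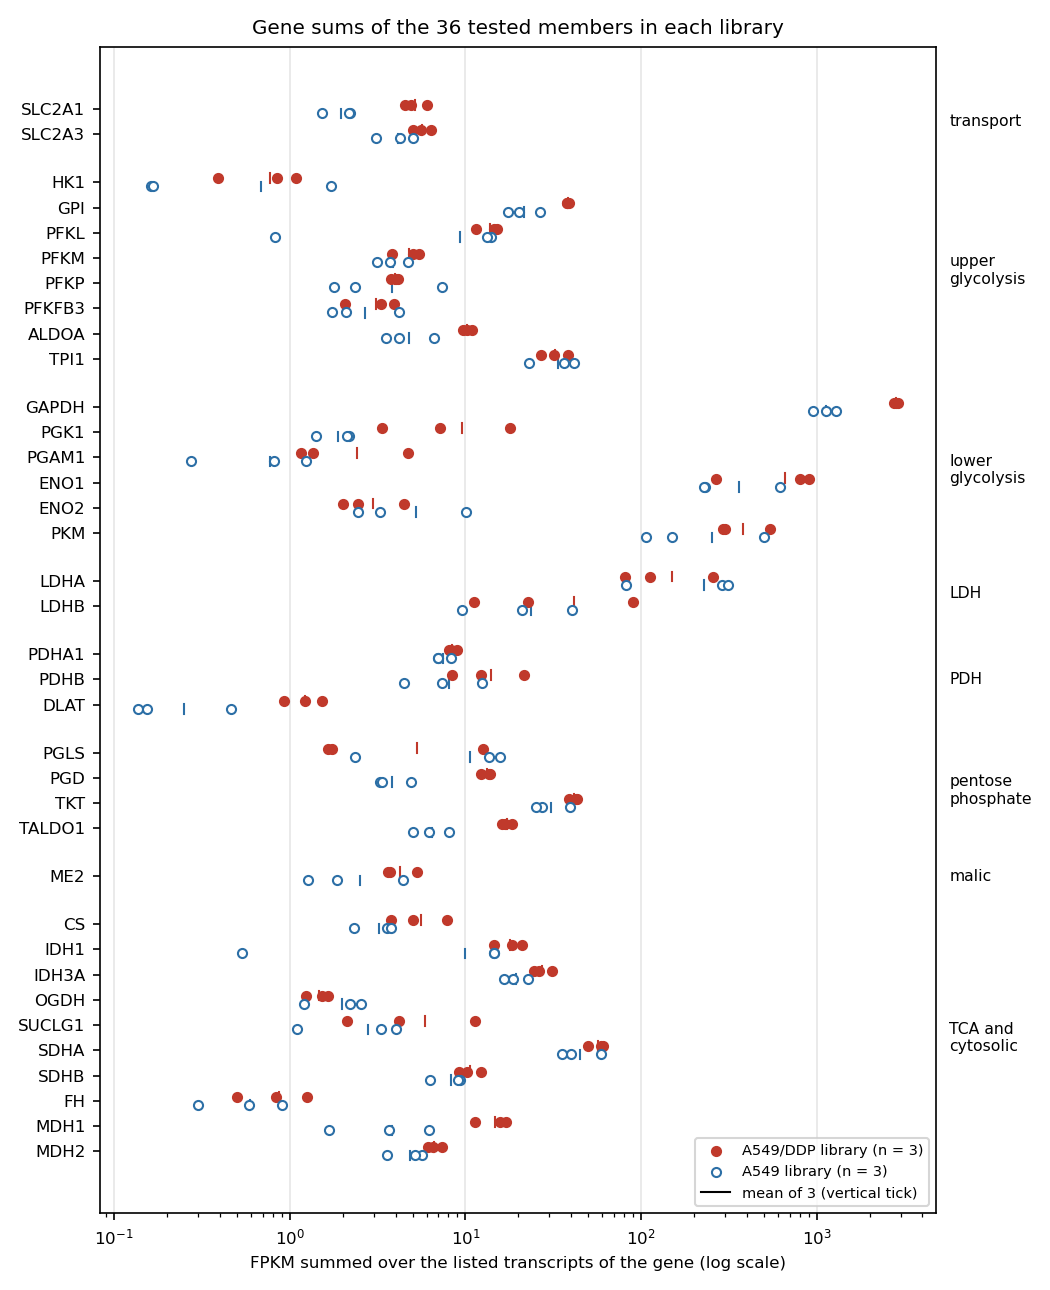
Gene sums of the 36 tested members in FPKM (horizontal log axis), grouped by pathway, with the A549/DDP libraries as filled circles above the A549 libraries as open circles, and the mean of 3 as a vertical tick. GAPDH, ENO1, PKM and LDHA are the most abundant, and single A549 libraries of IDH1 and PFKL lie far below the other libraries.

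Members of lower glycolysis, from GAPDH to PKM, had a median log2 fold change of 0.85 (6 tested), upper glycolysis 0.23 (8), the glucose transporters 0.72 (2), pyruvate dehydrogenase 0.73 (3), the pentose phosphate pathway 0.88 (4) and the TCA cycle with its cytosolic counterparts 0.45 (10). The 2 lactate dehydrogenase genes had a median of -0.03, and ME2, the single malic enzyme tested, had 0.66. These medians are descriptions of lists of unequal size.

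**Figure D2:**
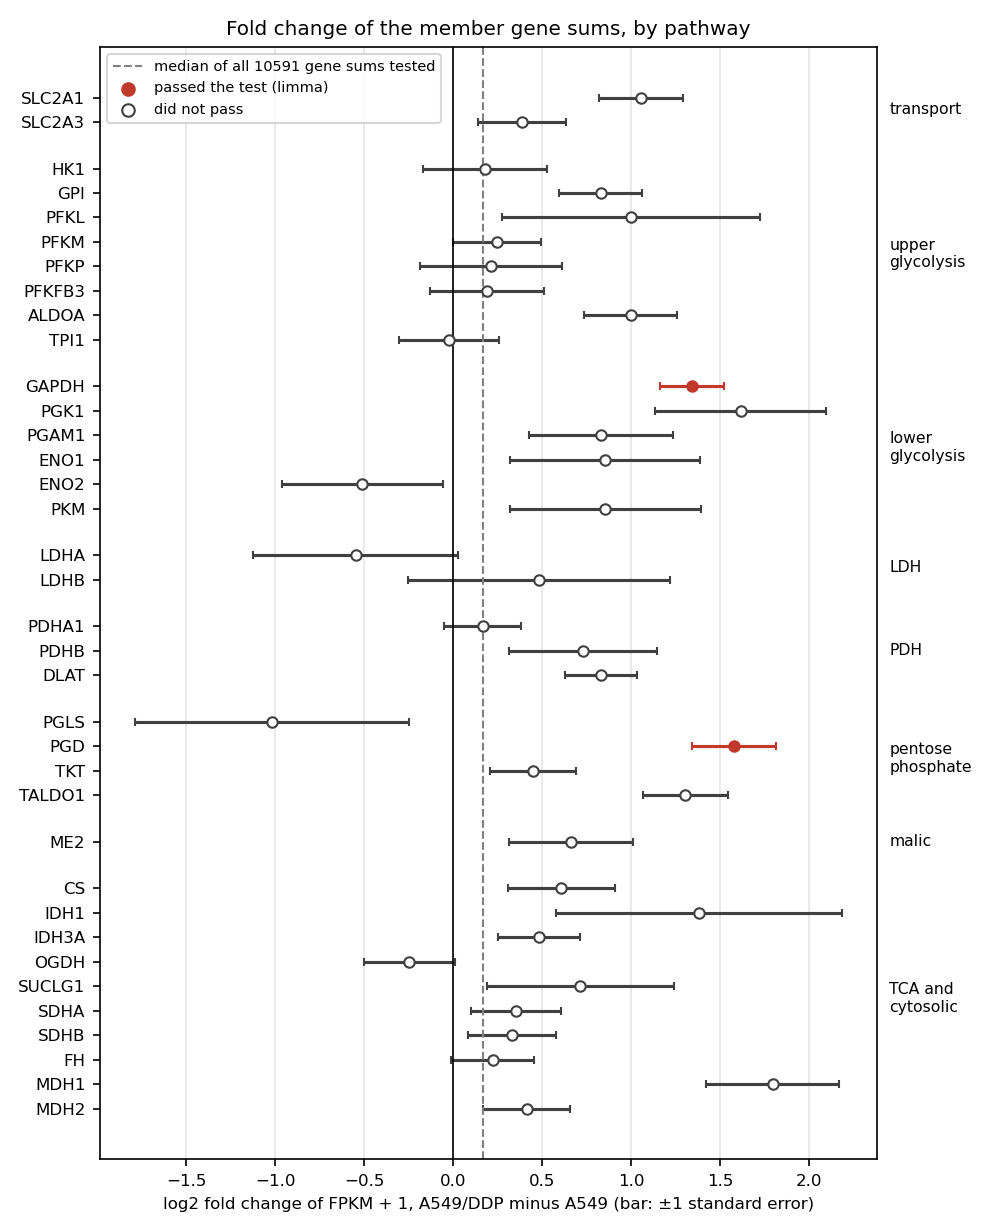
Log2 fold change of each member's gene sum, A549/DDP minus A549, on the log2(FPKM + 1) scale, with bars of ±1 standard error and the median of all gene sums tested (0.17) as a dashed line. Only GAPDH (1.34) and PGD (1.58), drawn filled, passed the test, and PGLS (-1.02) is the lowest.

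GAPDH was the most abundant member. Its gene sum was 2823, 2917 and 2745 FPKM in the A549/DDP libraries, against 1293, 953 and 1126 FPKM in the A549 libraries. The lines did not overlap, and the lowest A549/DDP library was far above the highest A549 library. On the log2 scale the difference was 1.34 (standard error, SE, 0.18, limma adjusted p = 0.00443). GAPDH held 4.0% to 4.48% of all FPKM in A549/DDP and 1.52% to 2.12% in A549, and it ranked first among gene IDs in every library except A549 replicate 2, where it ranked 3. The study used GAPDH as the internal control of its PCR. That PCR and this gene sum are unlike measures, and the level of the PCR control was not tested here. The call was kept without A549 replicate 1 (adjusted p = 0.00872) and lost without A549 replicate 2 (0.0128), A549 replicate 3 (0.0194) and A549/DDP replicates 1, 2 and 3 (0.0237, 0.0247 and 0.0327), at log2 fold changes of 1.23 to 1.45. Leaving out 1 library also cut the calls over all gene sums, from 147 higher to between 34 and 68. It was also lost with quantile normalization (0.22, adjusted p = 0.606) and with median-ratio scaling (1.09, adjusted p = 0.0342). Quantile normalization gives equal values to equal ranks. For a gene ranked first in every library except A549 replicate 2, it could keep little of a difference of any size, so it cannot decide about GAPDH.

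Almost all of this sum was 1 transcript. GAPDH-208 (chromosome 12, 6534541 to 6538314, plus strand, GRCh38) made up 99.5% of the GAPDH sum in A549/DDP and 98.3% in A549. It had 2811, 2902 and 2729 FPKM in A549/DDP and 1274, 937 and 1105 FPKM in A549, with a log2 fold change of 1.36 (SE 0.12, adjusted p = 0.00434). GAPDH-207 (6534754 to 6538317) went the other way, with 0.506, 0.671 and 0.469 FPKM in A549/DDP and 2.89, 2.63 and 3.46 FPKM in A549. That is a log2 fold change of -1.36 (adjusted p = 0.0221), which did not pass the threshold, and it was the only one of the 122 tested transcripts of members with every A549/DDP library below every A549 library. A usage test asks whether a transcript's log2 fold change differs from that of the other transcripts of its gene (limma diffSplice). It called GAPDH-208 (1.71, adjusted p = 0.00212) and GAPDH-207 (-1.70, adjusted p = 0.00222). Over all transcripts, 0.61% of 15564 were called by this test. As a transcript, GAPDH-208 was not called with any one library left out (adjusted p 0.0106 to 0.0278). Its usage call and that of GAPDH-207 were kept without A549 replicates 1 and 2 and lost without A549 replicate 3 (0.0238 and 0.0256) and without A549/DDP replicate 1 (0.0368 and 0.0218), 2 (0.0132 and 0.0176) or 3 (0.0222 and 0.0309). With quantile normalization, GAPDH-208 had a log2 fold change of 0.28 (adjusted p = 0.513) and a usage value of 0.68 (0.379), and GAPDH-207 a usage value of -1.48 (0.0163). The limit of quantile normalization given for the GAPDH sum concerns GAPDH-208 too, as it made up nearly all of that sum. With median-ratio scaling, the log2 fold change of GAPDH-208 was 1.06 (0.0382) and the usage value of GAPDH-207 -1.57 (0.0110), so these calls were lost too, while the usage call of GAPDH-208 was kept (1.62, 0.00904).

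GAPDH-208 and GAPDH-207 are nearly the same RNA. They share 1304 exon bases, 97.8% of GAPDH-208 and 95.7% of GAPDH-207, and 92.3% and 92.5% of their bases lie in exons of coding GAPDH transcripts. Both retain the whole of intron 4 (129 bases), so that sequence does not separate them. GAPDH-208 starts in exon 1 with 29 bases that GAPDH-207 lacks, and GAPDH-207 starts inside intron 1 with 56 bases that GAPDH-208 lacks. The sequences are shown because these short ends, with 3 more bases at the 3′ end of GAPDH-207, are all that sets the pair apart. Capitals mark the retained intron in the first line, with 15 exon bases on each side in lower case, and the bases particular to one of the pair in the other lines.
GAPDH intron 4, chr12:6536776-6536934, plus strand: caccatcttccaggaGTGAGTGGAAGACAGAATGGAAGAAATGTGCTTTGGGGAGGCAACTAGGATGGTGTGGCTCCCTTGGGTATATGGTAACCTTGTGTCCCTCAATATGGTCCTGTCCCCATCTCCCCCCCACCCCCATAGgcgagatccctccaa
GAPDH-208, first 29 bases, chr12:6534541-6534569, plus strand: GTCAGCCGCATCTTCTTTTGCGTCGCCAG
GAPDH-207, first 56 bases, chr12:6534754-6534809, plus strand: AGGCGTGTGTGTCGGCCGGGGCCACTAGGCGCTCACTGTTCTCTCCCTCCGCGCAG
Since most bases of both transcripts are shared with coding GAPDH mRNA, how reads were divided among them rests on the authors' quantification. GENCODE names 65 pseudogenes after GAPDH, so reads could also be shared with near-identical copies. An unnamed gene on the opposite strand (ENSG00000269968) overlaps these transcripts as well.

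**Figure D3:**
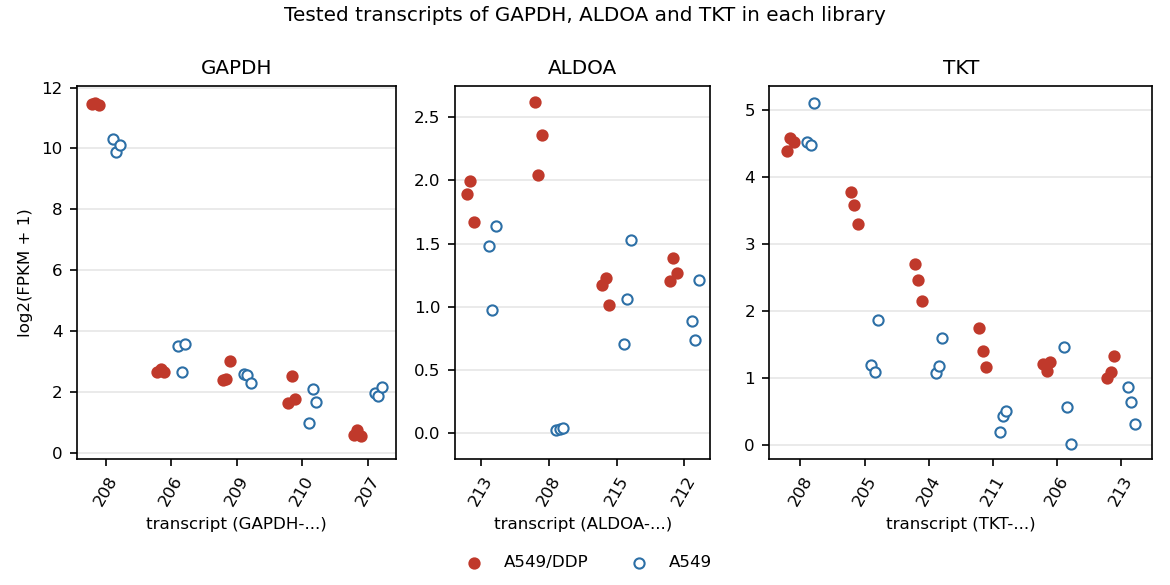
Level of each tested transcript of GAPDH, ALDOA and TKT on the log2(FPKM + 1) scale, with A549/DDP libraries as filled circles left of A549 libraries as open circles. GAPDH-208 and ALDOA-208 are higher in A549/DDP, GAPDH-207 is lower, and TKT-205 is separated while TKT-208 overlaps.

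Within the pentose phosphate pathway, PGD rose. Its gene sum was 12.3, 13.8 and 13.6 FPKM in A549/DDP and 3.24, 3.34 and 4.89 FPKM in A549, with no overlap. The log2 fold change was 1.58 (SE 0.24, adjusted p = 0.00713). All 4 of its transcripts had every A549/DDP library above every A549 library, with log2 fold changes of 1.01 to 1.30, and none passed the test alone (adjusted p 0.0789 to 0.120). PGD-209 (chromosome 1, 10418812 to 10419808, plus strand), the most abundant, had 4.74, 3.25 and 4.79 FPKM in A549/DDP and 2.12, 0.842 and 1.36 FPKM in A549. It retains the last intron of the gene. The usage test did not call the gene (adjusted p = 0.986). The call of the gene sum was lost without any one of the 6 libraries, at log2 fold changes of 1.49 to 1.73, with adjusted p = 0.0277, 0.0186 and 0.0126 without A549 replicates 1, 2 and 3, and 0.0309, 0.0353 and 0.0411 without A549/DDP replicates 1, 2 and 3. With quantile normalization it was 1.46 (adjusted p = 0.0127) and with median-ratio scaling 1.35 (adjusted p = 0.0192).

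The promoter of PGD is shown because PGD was the one member whose transcripts were all separated with a called sum. It was searched, on both strands, for TGACNNNGC (N is any base), the core of the antioxidant response element that binds NRF2. The RefSeq window (GRCh38.p14, chr1:10398814-10399113, plus strand, 250 bases before to 50 after the start) holds 1 match, in capitals, on the minus strand, whose first base lies at -201 from the start.
PGD promoter: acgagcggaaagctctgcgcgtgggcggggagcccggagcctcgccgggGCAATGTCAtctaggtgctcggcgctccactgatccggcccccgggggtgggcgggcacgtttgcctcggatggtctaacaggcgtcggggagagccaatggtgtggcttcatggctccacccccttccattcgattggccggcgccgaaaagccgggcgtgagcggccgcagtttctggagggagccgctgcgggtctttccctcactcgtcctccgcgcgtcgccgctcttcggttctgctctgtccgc
The same core is in 13.3% of all 35116 RefSeq promoter windows and in 10 of 66 windows of the 42 members with an entry, so a match is common and shows only that the letters are there.

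TALDO1 and TKT are the enzymes that move carbon units between sugar phosphates and link the pentose phosphate pathway back to glycolysis. The TALDO1 sum was 16.2, 18.3 and 16.9 FPKM in A549/DDP and 6.23, 5.04 and 8.04 FPKM in A549, a log2 fold change of 1.30 (SE 0.24, adjusted p = 0.0159) that missed the threshold although the lines did not overlap. TALDO1-204 (chromosome 11, 747464 to 760965, plus strand) had 6.87, 6.76 and 7.17 FPKM in A549/DDP and 1.21, 1.85 and 2.42 FPKM in A549 (log2 fold change 1.51, adjusted p = 0.0296). The TKT sum overlapped between the lines, with 43.3, 42.8 and 38.9 FPKM in A549/DDP and 27.4, 25.3 and 39.6 FPKM in A549 (log2 fold change 0.45, adjusted p = 0.272). Whether the 2 genes differ in their fold change was not tested.

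Inside TKT the transcripts moved unequally, and the usage test called the gene (adjusted p = 0.00404). TKT-205 (chromosome 3, 53225652 to 53235607, minus strand) had 12.8, 11.0 and 8.88 FPKM in A549/DDP and 1.30, 1.14 and 2.65 FPKM in A549, a log2 fold change of 2.17 (SE 0.31, adjusted p = 0.0151). TKT-208 (53232760 to 53235160) had 20.0, 23.0 and 22.1 FPKM in A549/DDP and 22.1, 21.3 and 33.5 FPKM in A549, a log2 fold change of -0.20 with overlapping lines. TKT-205 made up 26.1% of the TKT sum in A549/DDP and 5.50% in A549, and TKT-208 52.2% and 83.3%. The usage test called TKT-205 (1.56, adjusted p = 0.00289) and not TKT-208 (-1.28, adjusted p = 0.0174). The TKT-205 call was lost without A549 replicate 2 (0.0236) and without A549/DDP replicates 1, 2 and 3 (0.0444, 0.0430 and 0.0213). It was also lost with a pseudocount of 0.1 (1.46, adjusted p = 0.354) and with median-ratio scaling (1.49, adjusted p = 0.0124). TKT-205 retains introns 5, 6, 12 and 13 whole, spans 7286 exon bases of which 21.1% lie in exons of coding transcripts, and contains all 693 bases of TKT-208. The starts of these introns are shown, with 15 exon bases in lower case and the first 60 intron bases in capitals, because most of TKT-205 lies outside coding mRNA. The start of intron 6 is in TKT-208 too. TKT-213, also tested, retains intron 5 whole, so the start of intron 5 does not mark TKT-205 alone. All exon bases of TKT-213 and TKT-206 lie in TKT-205.
TKT intron 5, chr3:53234923-53234997, minus strand: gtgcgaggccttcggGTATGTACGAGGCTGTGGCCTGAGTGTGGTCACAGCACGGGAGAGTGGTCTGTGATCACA
TKT intron 6, chr3:53233096-53233170, minus strand: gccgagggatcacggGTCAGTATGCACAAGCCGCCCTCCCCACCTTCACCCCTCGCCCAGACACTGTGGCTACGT
TKT intron 12, chr3:53227996-53228070, minus strand: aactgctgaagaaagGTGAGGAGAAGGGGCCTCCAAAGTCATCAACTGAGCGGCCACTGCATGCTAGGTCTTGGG
TKT intron 13, chr3:53226696-53226770, minus strand: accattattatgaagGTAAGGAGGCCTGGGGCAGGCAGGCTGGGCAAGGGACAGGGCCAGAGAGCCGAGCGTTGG

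PGLS, the lactonase between the oxidative steps, had no steady level in either line. Its sum was 1.73, 12.5 and 1.66 FPKM in A549/DDP and 13.5, 2.35 and 15.7 FPKM in A549 (log2 fold change -1.02, adjusted p = 0.435). PGLS-205 carried these swings, with 1.02, 11.7 and 1.01 FPKM in A549/DDP and 12.4, 1.70 and 15.1 FPKM in A549. One library of each line was thus near the level of the other line.

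Upper glycolysis takes glucose to triose phosphates, and no gene sum there passed the test. ALDOA, which splits fructose 1,6-bisphosphate, had 10.8, 9.70 and 10.2 FPKM in A549/DDP and 4.19, 3.53 and 6.59 FPKM in A549, without overlap (log2 fold change 1.00, adjusted p = 0.050). ALDOA-208 (chromosome 16, 30064434 to 30070457, plus strand) was called higher. It had 5.14, 3.11 and 4.13 FPKM in A549/DDP and 0.0207, 0.0253 and 0.0283 FPKM in A549. ALDOA-208 passed the filter of 0.5 FPKM in 3 libraries only through the A549/DDP libraries, where it is high. Its calls below carry this limit, as does the usage call of the gene, which includes this transcript. The log2 fold change on the log2(FPKM + 1) scale was 2.30 (SE 0.23, adjusted p = 0.00529), and it was 5.05 with a pseudocount of 0.1, since the pseudocount of 1 holds down the change of a low value. ALDOA-208 was 40.2% of the ALDOA sum in A549/DDP and 0.519% in A549. Its usage value was 2.01 (adjusted p = 0.000103), and ALDOA was called by the usage test for genes (adjusted p = 0.000469). The other 3 tested ALDOA transcripts had log2 fold changes of 0.04 to 0.49, and none passed. The call of ALDOA-208 as a transcript was lost without any one library, with adjusted p = 0.0280, 0.0196 and 0.0266 without A549 replicates 1, 2 and 3, and 0.0272, 0.0253 and 0.0329 without A549/DDP replicates 1, 2 and 3. Its usage call was kept without each of them and lost with a filter of 2 FPKM (1.82, adjusted p = 0.0102). With no filter, ALDOA-208 lost its call as a transcript (2.30, limma adjusted p = 0.0221) and kept its usage call (2.22, adjusted p = 9.55e-11).

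ALDOA-208 retains introns 4 (984 bases) and 5 (117 bases), and 55.0% of its 2534 exon bases lie in exons of coding transcripts. The start of intron 4 and the whole of intron 5 are shown as the sequence that sets this transcript apart from coding ALDOA mRNA, with introns in capitals and 15 exon bases in lower case.
ALDOA intron 4 start, chr16:30067647-30067721, plus strand: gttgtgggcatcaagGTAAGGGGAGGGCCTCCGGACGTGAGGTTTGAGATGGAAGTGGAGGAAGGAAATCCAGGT
ALDOA intron 5, chr16:30068686-30068832, plus strand: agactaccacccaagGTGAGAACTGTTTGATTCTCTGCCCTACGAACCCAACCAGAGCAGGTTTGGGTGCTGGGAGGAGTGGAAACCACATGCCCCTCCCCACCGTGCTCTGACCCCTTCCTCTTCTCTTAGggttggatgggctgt
The transcript also overlaps ENSG00000285043 on the same strand and ENSG00000274904 on the opposite strand, whose reads could count toward it.

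Among single transcripts of all members, 2 of the 122 tested (GAPDH-208 and ALDOA-208) were called higher and 0 lower, beside 0.353% and 0.198% of the 20663 transcripts tested in the series. ALDOA-208 was among the 122 only through its A549/DDP libraries, and how many other transcripts entered through a single line was not counted. The A549/DDP libraries all exceeded those of A549 for 53 and all lay below them for 1, and the lines overlapped for 68, beside 18.9% above and 8.91% below over all transcripts. At an unadjusted limma p under 0.05, 46 were higher and 1 lower, beside 15.1% and 6.58% of all transcripts tested. The median log2 fold change was 0.49, against 0.14 over all transcripts tested. Transcripts of 1 gene share reads and are not independent. The usage test called 3 members (ALDOA, GAPDH and TKT), beside 1.23% of the 4487 genes tested.

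GPI, which interconverts glucose 6-phosphate and fructose 6-phosphate, had 39.0, 37.8 and 38.0 FPKM in A549/DDP and 26.7, 20.2 and 17.4 FPKM in A549, without overlap (log2 fold change 0.83, adjusted p = 0.0605). GPI-204 (chromosome 19, 34393267 to 34400327), its most abundant transcript, overlapped, with 17.1, 19.3 and 16.7 FPKM in A549/DDP and 17.7, 11.2 and 13.1 FPKM in A549. GPI-213 (34378978 to 34379867) did not, with 13.1, 10.7 and 11.8 FPKM in A549/DDP and 4.13, 3.57 and 0.130 FPKM in A549 (log2 fold change 2.10, adjusted p = 0.0844). Neither passed the test.

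**Figure D4:**
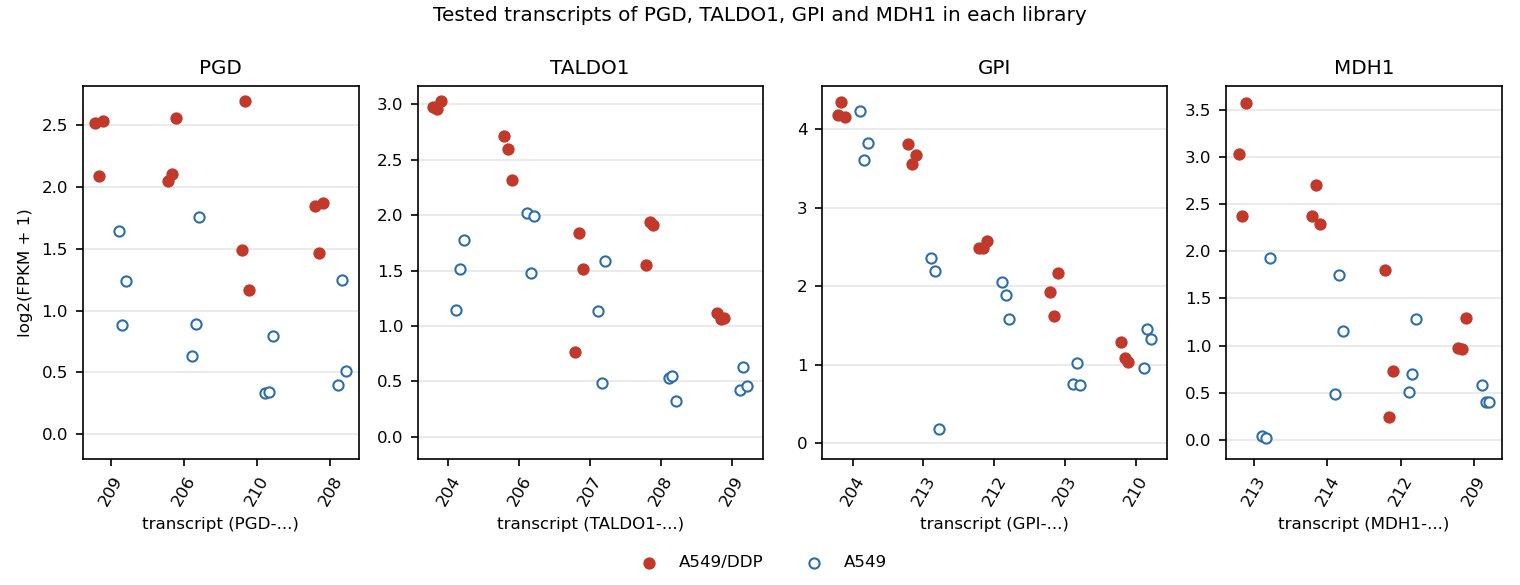
Level of each tested transcript of PGD, TALDO1, GPI and MDH1 on the log2(FPKM + 1) scale, with A549/DDP libraries as filled circles left of A549 libraries as open circles. All 4 PGD transcripts are separated, as are most of TALDO1, while GPI-204 and MDH1-212 overlap.

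The phosphofructokinase genes, which encode the committed step of glycolysis, overlapped between the lines. PFKL, the liver type, had 14.5, 15.2 and 11.5 FPKM in A549/DDP and 0.825, 14.1 and 13.2 FPKM in A549 (log2 fold change 1.00, SE 0.73, adjusted p = 0.415). A549 replicate 1 alone was low, and without it the log2 fold change was near 0 (-0.0014). PFKM (muscle type) had a log2 fold change of 0.25 and PFKP (platelet type) 0.21. PFKFB3, which makes the activator fructose 2,6-bisphosphate, had 0.19. HK1, a hexokinase, had 0.389, 1.08 and 0.846 FPKM in A549/DDP and 1.72, 0.162 and 0.166 FPKM in A549 (log2 fold change 0.18). TPI1, which interconverts the triose phosphates, had 27.0, 38.1 and 32.1 FPKM in A549/DDP and 41.4, 36.5 and 23.0 FPKM in A549 (-0.03, adjusted p = 0.966). HK2 and ALDOC, a hexokinase and the brain aldolase, stayed below the filter, with 0.0725 to 0.531 FPKM and 0 to 0.439 FPKM in A549/DDP, and 0.163 to 0.658 FPKM and 0.00738 to 0.0549 FPKM in A549.

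SLC2A1 (GLUT1) and SLC2A3 (GLUT3) carry glucose across the plasma membrane. The SLC2A1 sum was 4.92, 4.55 and 6.02 FPKM in A549/DDP and 2.21, 1.52 and 2.17 FPKM in A549, without overlap (log2 fold change 1.06, SE 0.24, adjusted p = 0.0305). SLC2A1-209, its most abundant transcript, had 2.80, 2.2 and 3.42 FPKM in A549/DDP and 1.66, 0.772 and 1.20 FPKM in A549 (0.79, adjusted p = 0.138). SLC2A3 overlapped by a narrow margin, with 5.00, 6.33 and 5.58 FPKM in A549/DDP and 5.02, 3.10 and 4.25 FPKM in A549 (0.39, adjusted p = 0.350). Neither transporter passed the threshold.

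In lower glycolysis, the other 5 members did not pass the test. PGK1, the first ATP-making enzyme, had 18.0, 3.37 and 7.17 FPKM in A549/DDP and 1.40, 2.16 and 2.10 FPKM in A549 (log2 fold change 1.62, SE 0.48, adjusted p = 0.0713). The lines did not overlap, but the A549/DDP libraries spread widely. ENO1, an enolase, was next to GAPDH in abundance and had 803, 898 and 267 FPKM in A549/DDP and 231, 229 and 616 FPKM in A549 (0.85, adjusted p = 0.343). Nearly all of it was an unnamed transcript on chromosome 1 (8861005 to 8871297, minus strand). That transcript had 765, 858 and 243 FPKM in A549/DDP and 220, 213 and 594 FPKM in A549. A second unnamed ENO1 transcript (8871352 to 8878676, minus strand) was separated, with 30.8, 33.9 and 20.1 FPKM in A549/DDP and 9.31, 14.3 and 18.7 FPKM in A549 (0.97, adjusted p = 0.168). PGAM1, a phosphoglycerate mutase, had 0.83 (adjusted p = 0.227), and ENO2, the neuronal enolase, had -0.51 (adjusted p = 0.508).

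PKM, the pyruvate kinase of most tissues, had 302, 294 and 540 FPKM in A549/DDP and 151, 502 and 106 FPKM in A549 (log2 fold change 0.85, adjusted p = 0.344). Its main transcript, PKM-220 (chromosome 15, 72208666 to 72210026, minus strand), was 67.5% of the sum in A549/DDP and 69.2% in A549, and it had 195, 161 and 411 FPKM in A549/DDP and 44.7, 452 and 28.7 FPKM in A549. A549 replicate 2 was above every A549/DDP library, and the other A549 libraries were below all of them. Other PKM transcripts were not alike. PKM-207 was lower on average, with 2.77, 16.3 and 1.92 FPKM in A549/DDP and 56.4, 5.63 and 18.2 FPKM in A549, and the lines overlapped (-1.75, adjusted p = 0.309). PKM-210 had 50.8, 59.6 and 42.4 FPKM in A549/DDP and 18.3, 8.95 and 32.0 FPKM in A549 (1.47, adjusted p = 0.109), and PKM-211 had 9.51, 9.30 and 11.4 FPKM in A549/DDP and 4.51, 4.89 and 4.84 FPKM in A549 (0.94, adjusted p = 0.0882). PKM-212 and PKM-213 were separated as well, each at 1.06. Of 8 tested PKM transcripts, 6 had every A549/DDP library above every A549 library, beside 18.9% of all transcripts tested, and none passed the test.

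LDHA and LDHB interconvert pyruvate and lactate, and neither passed the test. LDHA had 113, 81.3 and 258 FPKM in A549/DDP and 290, 82.3 and 312 FPKM in A549 (log2 fold change -0.55, SE 0.58, adjusted p = 0.581). LDHA-202 (chromosome 11, 18399726 to 18407584, plus strand) was its most abundant transcript, with 20.0, 35.6 and 217 FPKM in A549/DDP and 223, 36.1 and 252 FPKM in A549. High and low libraries occurred in both lines. LDHB had 11.2, 22.6 and 90.0 FPKM in A549/DDP and 21.0, 9.50 and 40.4 FPKM in A549 (0.48, adjusted p = 0.716), and its main transcript LDHB-206 had 2.92, 11.1 and 79.0 FPKM in A549/DDP and 4.65, 1.39 and 22.1 FPKM in A549.

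**Figure D5:**
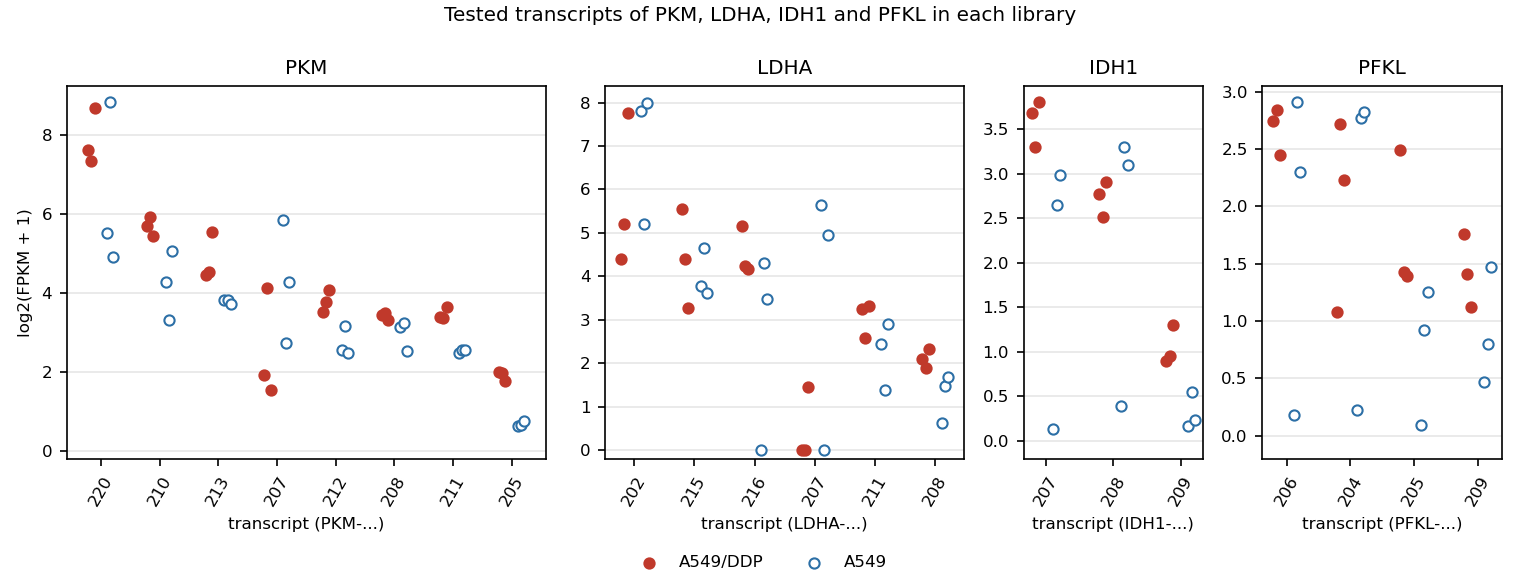
Level of each tested transcript of PKM, LDHA, IDH1 and PFKL on the log2(FPKM + 1) scale, with A549/DDP libraries as filled circles left of A549 libraries as open circles. PKM-220 and LDHA-202 range widely within a line, and 1 A549 library is near 0 for IDH1-207, IDH1-208, PFKL-204 and PFKL-206.

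The spread within a line differed between members. The highest library was a median 1.43 times the lowest in A549/DDP and 2.27 times in A549 over the 36 gene sums. It was over 2-fold for 12 members in A549/DDP and 19 in A549, and over 4-fold for 5 and 9.

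The pyruvate dehydrogenase complex makes acetyl-CoA from pyruvate. DLAT, its acetyltransferase subunit, had 1.52, 0.926 and 1.22 FPKM in A549/DDP and 0.459, 0.136 and 0.154 FPKM in A549, without overlap (log2 fold change 0.83, SE 0.20, adjusted p = 0.0395), all from 1 transcript without an annotated span. DLAT passed the filter only through A549/DDP, as its A549 libraries were all below 0.5 FPKM. PDHA1 and PDHB, the subunits of the first enzyme of the complex, had 0.16 and 0.73 (adjusted p = 0.666 and 0.301) with overlapping lines. PDK1, a kinase that inhibits the complex, stayed below the filter, with 0.0212, 0.0224 and 0.219 FPKM in A549/DDP and 0.0771, 0.227 and 1.19 FPKM in A549. No member of this group passed the test.

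ME2, the mitochondrial malic enzyme, had 5.29, 3.73 and 3.64 FPKM in A549/DDP and 1.85, 4.38 and 1.27 FPKM in A549 (log2 fold change 0.66, adjusted p = 0.261). The lines overlapped through A549 replicate 2.

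Among 10 tested genes of the TCA cycle and its cytosolic counterparts, none was called, 3 were separated with A549/DDP above A549 (MDH1, MDH2 and IDH3A) and 9 had a positive log2 fold change, beside 21.8% separated in that direction and 62.5% positive over all gene sums. MDH1, the cytosolic malate dehydrogenase, had 15.7, 11.4 and 17.1 FPKM in A549/DDP and 1.67, 3.66 and 6.19 FPKM in A549 (log2 fold change 1.79, SE 0.37, adjusted p = 0.0236). This was the largest log2 fold change among the 36 gene sums and it missed the threshold. MDH1-213 (chromosome 2, 63588609 to 63597657, plus strand) had 7.18, 4.18 and 10.9 FPKM in A549/DDP and 0.0277, 0.0163 and 2.80 FPKM in A549 (2.33, adjusted p = 0.0667). It overlaps WDPCP on the opposite strand. MDH2, the mitochondrial form, had 6.09, 7.37 and 6.49 FPKM in A549/DDP and 5.63, 3.60 and 5.19 FPKM in A549 (0.41, adjusted p = 0.315).

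IDH1, the cytosolic NADP-dependent isocitrate dehydrogenase, had 18.5, 14.5 and 20.9 FPKM in A549/DDP and 0.534, 14.6 and 14.6 FPKM in A549 (log2 fold change 1.38, SE 0.80, adjusted p = 0.309). As with PFKL, only A549 replicate 1 was low, and without it the log2 fold change was 0.27 (adjusted p = 0.573), against 1.27 to 1.94 without any other library. IDH1-207 (chromosome 2, 208247382 to 208255061, minus strand) had 11.8, 8.83 and 12.9 FPKM in A549/DDP and 0.0972, 5.27 and 6.90 FPKM in A549 (1.67, adjusted p = 0.221). IDH3A, a subunit of the NAD-dependent enzyme of the cycle, had 26.1, 24.6 and 31.1 FPKM in A549/DDP and 22.8, 16.6 and 18.5 FPKM in A549 (0.48, adjusted p = 0.220).

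CS, the citrate synthase, had a log2 fold change of 0.61 (adjusted p = 0.234) and SUCLG1, a subunit of succinate-CoA ligase, 0.71 (adjusted p = 0.422), both with overlapping lines. SDHA, the flavoprotein of succinate dehydrogenase and the most abundant gene of the cycle here, had 60.8, 59.0 and 49.6 FPKM in A549/DDP and 39.7, 35.6 and 59.2 FPKM in A549 (0.35, adjusted p = 0.411). SDHB, its iron-sulfur subunit, had 0.33, FH, the fumarase, 0.22, and OGDH, of the oxoglutarate dehydrogenase complex, -0.25 (adjusted p 0.430, 0.584 and 0.579). OGDH was the only gene of this group with a negative value.

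All members together made up 6.24% to 7.05% of the summed FPKM in A549/DDP and 3.23% to 4.30% in A549. Without GAPDH they held 1625, 1675 and 1538 FPKM in A549/DDP and 949.8, 1066 and 1368 FPKM in A549.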

How the data were processed

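RNA of 3 A549/DDP and 3 A549 libraries was depleted of rRNA, made with a strand-keeping kit and sequenced by the authors. The deposited values are FPKM per transcript, which the authors computed. Their paper names Trimmomatic, HISAT2 (hg38), Cufflinks, cuffquant, cuffnorm and cuffdiff, and the submitters' processing notes name CASAVA, HISAT2, StringTie and DESeq2 without versions. Which made these FPKM values is not given in the sources used here, nor whether strand was used in counting. The tables hold no reads, so depth is unknown and no count test was run.

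Gene IDs were matched to GENCODE 44 (GRCh38), and transcripts were named where gene ID and span matched (87.1%). A span does not show the exons. FPKM values were summed per gene and taken to log2 after adding a pseudocount of 1. Features needed 0.5 FPKM in 3 or more of the 6 libraries. The lines were compared in limma 3.58.1 under R 4.3.3, using eBayes with a variance trend. Adjustment was by Benjamini-Hochberg across the whole table. The threshold was 0.01 for the adjusted p together with a log2 fold change beyond 1 in size. Usage was tested with diffSplice (adjusted p under 0.01). The code was tested on simulated data. Promoter windows are from RefSeq (GRCh38.p14). Tables and figures were made with Python 3.11.15, pandas 2.3.3, numpy 2.4.6 and matplotlib 3.10.9.

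The members, lists and tests were chosen with earlier results of these data known. All members were named, with every called transcript, the most abundant transcript of each member, and the 10 largest and 10 smallest fold changes among separated transcripts whose mean reached 5 FPKM. Other genes of the pathways were to be named if called. PFKL-204, IDH1-208 and MDH1-212, named in captions, PKM-207 and the genes named under other observations were chosen after their values were seen. Alternatives were other scalings, pseudocounts and filters, no variance trend, a replicate block, annotated spans only, and leaving out each library.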

Additional observations from a re-analysis of the deposited data

How the results depend on the processing

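The count of member gene sums called higher (2) was 0 with the replicate block, no filter, a pseudocount of 0.01, median-ratio scaling and quantile normalization, 1 with a pseudocount of 0.1, and 0 to 1 when 1 library was left out. The count of member transcripts called higher (2) was 1 with no variance trend, a pseudocount of 0.1, median-ratio scaling and quantile normalization, 0 with a pseudocount of 0.01, no filter and the replicate block, and 0 when any library was left out. No member was called lower under any alternative. The usage test called 3 genes, 1 with the replicate block and 0 to 4 with a library left out, and 4 transcripts, 2 with quantile normalization, median-ratio scaling or a pseudocount of 0.1, and 1 to 5 with a library left out. The usage call of TKT-205 was lost with the replicate block (adjusted p = 0.0350). Libraries of the same number did not deviate together (correlations 0.0041, -0.046 and -0.023). With 3 libraries per line, these correlations cannot show whether the numbers pair them.

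Quantile normalization gives equal values to equal ranks, and GAPDH ranked first in 5 of 6 libraries. The median log2 fold change of all gene sums was 0.17 as deposited, 0.04 with quantile normalization and 0.02 with median-ratio scaling, and that of the members 0.54, 0.49 and 0.32. Calls of all gene sums were 147 higher and 102 lower as deposited, 104 and 115 with quantile normalization, 94 and 118 with median-ratio scaling, 114 and 89 and 49 and 41 with pseudocounts of 0.1 and 0.01, 31 and 28 without the filter, and 36 and 35 with the replicate block. With 1 library left out they were 34 to 68 higher and 23 to 60 lower, so the loss of a member's call there goes with fewer calls in the whole table. The retained-intron share differed by 1.08 percentage points, by -10.2 without GAPDH (exact permutation p = 0.5), and by -3.43 to 3.44 with a library left out.

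None of the results whose sign turned was called, and their log2 fold changes as deposited reached 1.00 (PFKL), with 0.48 for LDHB and -0.43 for ENO2-202. With median-ratio scaling the log2 fold change was -0.0023 for PFKFB3, -0.060 for PDHA1, -0.15 for SLC2A3-205, -0.039 for FH-203, -0.037 for PFKFB3-213, -0.038 for SDHA-216, -0.035 for MDH2-202, -0.023 for SDHB-205 and -0.047 for PDHA1-208. With quantile normalization it was -0.047 for SLC2A3-205, -0.048 for FH-203 and 0.017 for TPI1-204. With a library left out it ranged from -0.028 to 0.59 for HK1, -0.0014 to 1.52 for PFKL, -0.095 to 0.70 for PFKP, -0.27 to 0.14 for TPI1, -0.33 to 1.12 for LDHB, -0.82 to 0.17 for ENO2-202, -0.13 to 0.16 for SLC2A3-205, -0.31 to 0.10 for TPI1-204, -0.054 to 0.14 for FH-203, -0.37 to 0.038 for OGDH-208, -0.068 to 0.78 for PFKP-207 and -0.021 to 0.34 for MDH2-202. Of 1188 such values of single genes and transcripts, 1092 kept direction and side of the threshold, 64 lost a call, 31 turned sign and 1 gained a call (TKT-205 with a filter of 2 FPKM, adjusted p = 0.00819). Only a called result can lose a call, and most of the 1188 values belong to genes and transcripts that were not called. The 1092 therefore do not measure how steady the calls are. The causes were not tested.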

Other observations

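Of 70 other genes of the same pathways, 49 had transcripts and 30 were tested, and 0 were called in either direction (limma). At an unadjusted p under 0.05, 4 were higher and 5 lower, beside 18.3% and 8.71% of all gene sums, and their median log2 fold change was 0.32. The genes below were picked for their values. PDK4, a kinase that inhibits pyruvate dehydrogenase, had 11.0, 7.87 and 8.95 FPKM in A549/DDP and 1.53, 4.98 and 3.04 FPKM in A549 (log2 fold change 1.37, adjusted p = 0.0411), while PDK2, of the same family, had 5.19, 7.06 and 5.30 FPKM in A549/DDP and 8.97, 8.07 and 10.0 FPKM in A549 (-0.55, adjusted p = 0.170).

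Several separated genes lay lower in A549/DDP. HKDC1, a hexokinase family member, had 3.14, 3.58 and 6.87 FPKM in A549/DDP and 10.8, 12.6 and 8.46 FPKM in A549 (log2 fold change -1.12, adjusted p = 0.0575). PFKFB4, of the same family as PFKFB3, had 1.39, 1.17 and 1.21 FPKM in A549/DDP and 3.87, 3.19 and 2.77 FPKM in A549 (-0.92, adjusted p = 0.0413). SLC16A3 (MCT4), a lactate exporter, had 0.267, 0.621 and 0.701 FPKM in A549/DDP and 1.43, 1.81 and 1.80 FPKM in A549 (-0.82, adjusted p = 0.0499). GOT1, the cytosolic aspartate aminotransferase that works with MDH1 in the malate-aspartate shuttle, had 4.03, 4.56 and 3.72 FPKM in A549/DDP and 11.8, 7.66 and 7.90 FPKM in A549 (-0.97, adjusted p = 0.0479), whereas MDH1 was separated in the other direction.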
